A study of Mus musculus with 8 samples.

Results

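A Chd8 peak at a gene end that lies over a Chd7 peak in one Chd7 library and not in the other was found 2648 times in the Chd8 library studied here. The peaks were chosen by the deposited peak calls: each touched no mock peak, overlapped by 1 bp or more a peak of exactly 1 of the 2 Chd7 libraries, and touched the 1 kb on either side of a boundary of a RefSeq protein-coding gene (mm10). They were 30.7% of the 8634 gene-end Chd8 peaks and came from 18350 Chd8 peaks in all that touched no mock peak. Of the other gene-end peaks, 927 overlapped both Chd7 libraries and 5059 overlapped neither. The Chd7 peak was in replicate 1 for 850 one-library peaks and in replicate 2 for 1798. The whole lists of these libraries held 5282 and 6292 peaks, with median widths of 248 and 299 bp.

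Chromatin immunoprecipitation and sequencing (ChIP-seq) was carried out on cells that magnetic beads had sorted for O4 from wild-type animals at P7 (postnatal day 7), for which the labels name cortex and corpus callosum. Cells of the oligodendrocyte lineage carry the O4 antigen on their surface, and the samples are labelled OPC, oligodendrocyte precursor cell. The libraries were 2 Chd7 ChIPs, 1 Chd8 ChIP, 2 rabbit IgG mocks (1 for Chd7 replicate 1, 1 shared by Chd7 replicate 2 and Chd8) and 3 inputs, which are chromatin sequenced without precipitation. All came from untreated wild-type animals, and no library lacks either remodeler, so antibody specificity has no control of that kind here. The sources used here do not say whether animals were pooled or whether the libraries of one antibody came from separate animals. The extraction notes name the O4 antibody for the precipitation itself, whereas the antibody field of each sample names anti-Chd7, anti-Chd8 or IgG, which was followed. Track names in the files number Chd7 replicate 2 as 3 and Chd8 as 2. By those numbers inputs 2 and 3 would change places.

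Chd7 and Chd8 are related ATP-dependent chromatin remodelers that slide or evict nucleosomes. Both have been found at active promoters and enhancers, and both are needed for the oligodendrocyte lineage to mature. Human CHD7 is the gene of CHARGE syndrome, and CHD8 is a gene linked to autism.

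The files hold peak calls and no reads, so depth is unknown, and with 1 Chd8 library no comparison of Chd8 peaks could be tested over samples. All intervals below are 95% exact intervals over peaks or genes (Clopper-Pearson for shares, order statistics for medians) and cover counting error only. Groups cut by the Chd7 calls are described side by side without a test. A Chd8 peak lay at an end of 41.0% of all protein-coding genes (8963 of 21883). Such a peak lay at an end of 25 of 30 OPC identity genes, 13 of 34 oligodendrocyte differentiation genes, 12 of 20 astrocyte markers, 8 of 30 neuron markers, 4 of 24 microglia markers and 0 of 27 endothelial and mural markers. Input 3 had a peak at an end of 20, 19, 12, 16, 9 and 9 genes of these lists, in that order. These are counts of peaks and not of expression.

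Sequences from the strongest one-library peaks are shown first, because the start site inside each peak and its motifs come back in the results. Of the 10 peaks of highest Chd8 fold for each Chd7 library, those with at least 100 bases of promoter inside the peak and outside every RefSeq gene body were taken in order of fold, up to 3 per library. The length limit was chosen after the data were seen. Each run ends 1 base before an annotated start site and reads 5′ to 3′ on the strand of the gene (RefSeq, GRCm38.p6). Capitals mark matches to the motifs spelled out further on.
Nuf2, minus strand, chr1:169531465-169531576: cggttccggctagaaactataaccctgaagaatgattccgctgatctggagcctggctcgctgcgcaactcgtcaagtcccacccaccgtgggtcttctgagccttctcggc
Snrnp70, minus strand, chr7:45395743-45395992: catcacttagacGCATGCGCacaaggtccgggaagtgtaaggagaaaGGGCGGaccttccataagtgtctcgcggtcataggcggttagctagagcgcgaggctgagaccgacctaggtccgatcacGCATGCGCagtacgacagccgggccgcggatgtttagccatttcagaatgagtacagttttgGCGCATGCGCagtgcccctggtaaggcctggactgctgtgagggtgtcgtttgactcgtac
Kctd5, minus strand, chr17:24073486-24073679: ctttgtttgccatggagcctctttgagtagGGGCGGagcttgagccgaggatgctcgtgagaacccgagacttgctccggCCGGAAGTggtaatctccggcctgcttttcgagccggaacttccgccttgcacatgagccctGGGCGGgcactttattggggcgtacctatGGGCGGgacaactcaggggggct
Psmd1, plus strand, chr1:86064369-86064618: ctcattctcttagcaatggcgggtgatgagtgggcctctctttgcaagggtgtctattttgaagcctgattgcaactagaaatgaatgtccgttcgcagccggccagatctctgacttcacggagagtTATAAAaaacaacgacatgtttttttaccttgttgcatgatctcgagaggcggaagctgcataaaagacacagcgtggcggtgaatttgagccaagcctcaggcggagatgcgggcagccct
Mtmr10, plus strand, chr7:64287420-64287669: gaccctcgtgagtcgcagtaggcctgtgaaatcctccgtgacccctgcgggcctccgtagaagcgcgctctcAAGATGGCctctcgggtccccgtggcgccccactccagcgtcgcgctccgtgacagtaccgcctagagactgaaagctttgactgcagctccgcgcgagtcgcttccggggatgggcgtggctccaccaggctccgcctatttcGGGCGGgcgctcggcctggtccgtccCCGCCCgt
The first 3 lay in peaks found in Chd7 replicate 1 and the other two in peaks found in Chd7 replicate 2. GC content was 58.0% at Nuf2, 57.6% at Snrnp70, 60.8% at Kctd5, 49.6% at Psmd1 and 68.4% at Mtmr10. The stretches held 8, 21, 13, 12 and 29 CpG dinucleotides in that order. No motif of the 12 searched was matched in the 112 bases at Nuf2. Snrnp70 held 3 separate NRF1 matches and a GC box, Kctd5 an ETS match and 3 GC boxes, Psmd1 a TATA box match, and Mtmr10 a YY1 match and 2 GC boxes.

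The strongest Chd8 signal among peaks found in Chd7 replicate 1 was at the start of Nuf2, a kinetochore gene, on chromosome 1 from 169531250 to 169531957. Fold over the caller's local background, the authors' value for each peak, was 15.6 for Chd8 and 4.84 for Chd7 replicate 1, and input 3 had a peak of fold 4.29 there. Chd7 replicate 2, both mocks and inputs 1 and 2 listed no peak over it. Fbxo36, an F-box gene, followed with a Chd8 fold of 14.8 over 1255 bp and a Chd7 replicate 1 fold of 4.53. That peak also held a start site of the ubiquitin ligase gene Trip12. Mcm7, a subunit of the replicative helicase, and its neighbour Ap4m1 shared a peak with a Chd8 fold of 12.9 and a Chd7 fold of 4.66. Cpeb4, which binds mRNA to control polyadenylation, had 11.8, and the pair Ccdc77 and Kdm5a, a histone H3K4 demethylase, had 11.5. Rbbp5, a core subunit of the H3K4 methylase complexes, had 11.4, 1700037C18Rik 11.1, and Snrnp70, a protein of the U1 spliceosomal particle, 10.5. Kctd5 with the finish of Pdpk1 had 10.2, and Dhodh, an enzyme of pyrimidine synthesis, had 9.91. All 10 touched a peak of input 3, with input folds of 3.33 to 4.29.

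Among peaks found in Chd7 replicate 2 the strongest was at the start of Wdr75, a gene of ribosome assembly, on chromosome 1 from 45794932 to 45795659. Its Chd8 fold was 12.9 and its Chd7 replicate 2 fold 3.76, with peaks of fold 3.97 and 3.58 in inputs 1 and 3. Cradd, a death-domain adaptor, followed with a Chd8 fold of 11.7 and a Chd7 fold of 3.19, and Ccni, a cyclin, beside 2010109A12Rik, with 11.2 and 3.22. The Cradd and Ccni peaks touched no peak of any input. Psmd9 and Psmd1, both proteasome genes, had Chd8 folds of 11.3 and 10.8. Adnp, a homeobox gene of the ChAHP remodeling complex linked to autism, had 10.9 for Chd8 and 4.12 for Chd7. Mtmr10 had 10.8, the kinase adaptor gene Tab1 10.6, the mitochondrial lipid kinase gene Agk 10.6, and the head-to-head pair Vti1a and Zdhhc6 10.5. No peak of Chd7 replicate 1 lay over any of these 10.

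The order by Chd8 fold was not the order by Chd7 fold at these sites. Rbbp5, 1700037C18Rik and Dhodh had a Chd7 replicate 1 fold of 4.15, at percentile 5.18 of that library's list, whereas Snrnp70 had 6.33, at percentile 97.3. The 4.15 was the lowest Chd7 fold of any one-library peak of replicate 1, and other such peaks shared it, so its percentile is that of a tie. The highest Chd7 folds among the one-library peaks of replicate 1 were at Dot1l, the H3K79 methylase (6.99), the pair Pcsk4 and Reep6 (6.80) and Dgat1, which makes triglycerides (6.77). Their Chd8 folds were 5.38, 4.38 and 4.20. In replicate 2 they were at Adam17, a shedding protease (5.91), Cfap97 (5.62) and Mapkbp1 (5.49), with Chd8 folds of 7.35, 5.11 and 4.76. Chd7 folds of the 2 libraries lie on different scales, with medians of 4.60 and 3.34 over each whole list, and are not compared.

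The one-library peaks lay between the other groups of gene-end peaks in median Chd8 fold and width. Their median Chd8 fold was 4.97 (4.94 to 5.01), beside 5.47 (5.39 to 5.56) for peaks in both Chd7 libraries and 4.44 (4.42 to 4.46) for peaks in neither. The quartiles of the one-library peaks were 4.45 and 5.72, and the range was 3.81 to 15.6. The highest fold was 14.3 for peaks in both libraries and 23.6 for peaks in neither, so the order of the medians did not hold at the top. Median width was 600 bp (583 to 616) for one-library peaks, beside 782 bp (752 to 811) for both libraries and 374 bp (366 to 382) for neither. The groups are cut by an overlap of 1 bp or more, which wider peaks meet more easily, so width is not independent of the grouping. Median −log10 q was 3.57, beside 4.40 and 2.72. Peaks found in replicate 1 had a slightly higher median Chd8 fold than those found in replicate 2, 5.13 (5.03 to 5.23) against 4.93 (4.88 to 4.96), and their widths were 618 bp (580 to 653) and 590 bp (572 to 611). The distributions overlapped over most of their range in every group, as the cumulative plot of fold and width shows.

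**Figure D1:**
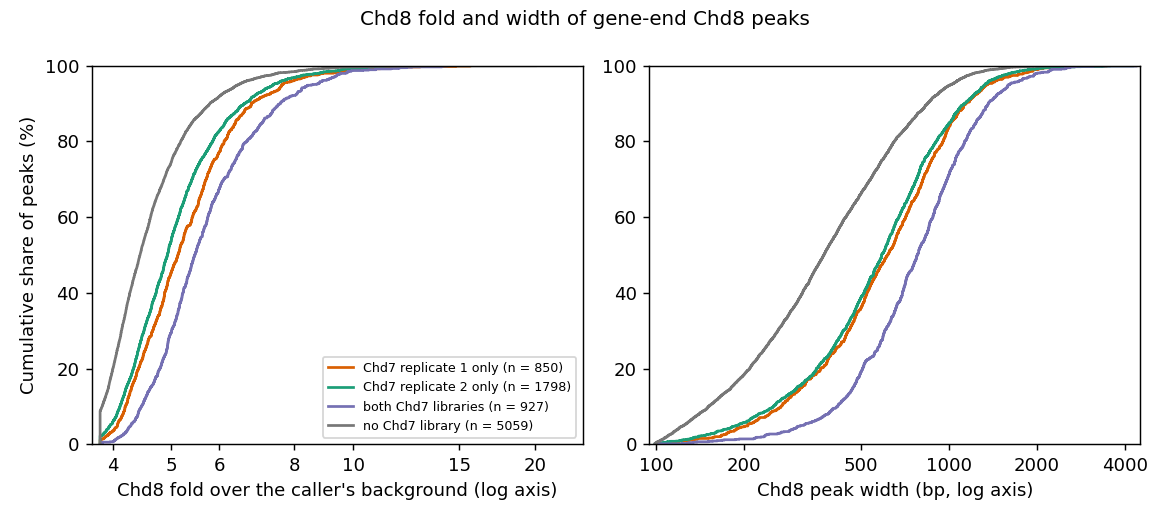
Cumulative share of gene-end Chd8 peaks (%) by Chd8 fold over the caller's background (left, log axis) and by width in bp (right, log axis). Lines are the peaks in Chd7 replicate 1 only, in replicate 2 only, in both Chd7 libraries and in neither. The one-library medians lie between those of the other two, at 4.97 for fold and 600 bp for width over both kinds together. The highest single fold, 23.6, was in a peak in neither library.

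With gene-end peaks split into 4 equal groups by Chd8 fold, the one-library share was 16.3% (14.7 to 17.9) in the lowest, then 28.2%, 36.7% and 41.5% (39.4 to 43.6) in the highest. By width the shares were 16.0%, 27.1%, 37.6% and 42.0%. A wider Chd8 peak meets the 1 bp overlap rule more easily, and how much of this rise comes from the rule was not tested. The share in both libraries went from 1.39% to 22.6% across the fold groups. Peaks in replicate 2 alone levelled off, at 25.8% (23.9 to 27.7) and 25.4% (23.6 to 27.3) in the upper groups, whereas peaks in replicate 1 alone went from 8.25% (7.12 to 9.49) in the second group to 16.1% (14.6 to 17.7) in the highest. The shares were also taken within width groups. Among peaks in the narrowest of the 4 width groups the one-library share was 10.5% (8.73 to 12.5), 18.7%, 22.5% and 28.7% (22.0 to 36.2) from the lowest to the highest fold group. Among the widest it was 34.3% (26.4 to 42.9), 37.3%, 45.7% and 42.7% (39.5 to 45.9).

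**Figure D2:**
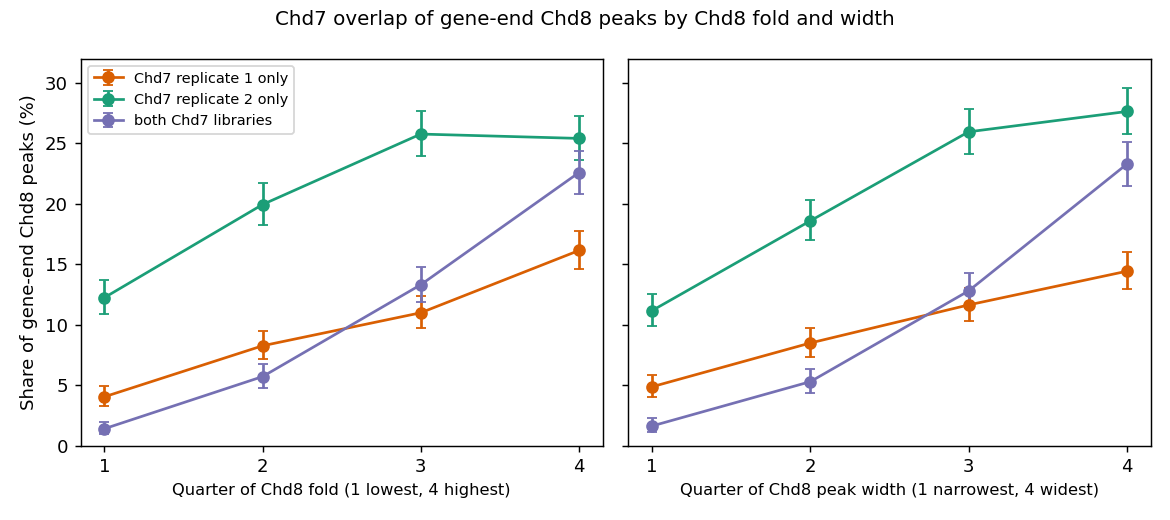
Share of gene-end Chd8 peaks (%) found in Chd7 replicate 1 only, replicate 2 only or both libraries, in 4 equal groups by Chd8 fold (left) and by Chd8 width (right), with 95% exact intervals. The share in both libraries reaches 22.6% in the highest fold group, where the share in replicate 2 only is 25.4%. Peaks in both libraries are not part of either replicate's line.

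On the Chd7 side, the one-library peaks were not confined to weak Chd7 calls. Their Chd7 peaks had a median fold percentile of 42.2 (39.2 to 45.7) within the replicate 1 list and 53.1 (50.4 to 55.2) within the replicate 2 list. Peaks in both libraries had 51.0 (48.7 to 53.8) and 63.1 (60.3 to 65.3). Median width of the Chd7 peak was 238 bp in replicate 1 and 375 bp in replicate 2, and it covered a median of 35.7% and 53.3% of the Chd8 peak. Of the gene-end Chd8 peaks over a replicate 1 peak, 52.2% (49.8 to 54.5) also lay over a replicate 2 peak. In the reverse direction it was 34.0% (32.2 to 35.8). Both shares rest on the same 927 peaks, out of 1777 and 2725.

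Near misses in the other Chd7 library were few. A peak of the library that did not overlap lay within 500 bp of the Chd8 peak in 48 cases (1.81%), within 1000 bp in 86 (3.25%) and within 5000 bp in 162 (6.12%). For gene-end Chd8 peaks in neither library, a peak of either Chd7 library lay that near in 6.13%, 10.7% and 16.3%. Those shares count 2 libraries and not 1. The median distance from a one-library peak to the other Chd7 library was 79482 bp. At the edge of the rule, the shortest overlaps were 1 bp at Habp4, 2 bp at Ripk2 and 3 bp at Id4, an inhibitor of bHLH factors, with Chd8 folds of 4.26, 4.13 and 4.19. Just outside it, Chd8 peaks at Hgh1 and Atcay lay 0 and 1 bp from a Chd7 peak without sharing a base, with Chd8 folds of 4.32 and 4.41. At the window's edge, 27 one-library peaks touched under 100 bp of a gene-end window. The mock filter took away 1 further peak of this kind.

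Peaks of the input libraries lay under many of these sites. Of the one-library peaks 34.2% (32.4 to 36.0) touched a peak of input 1, 39.5% (37.7 to 41.4) of input 2 and 70.2% (68.4 to 71.9) of input 3, where all gene-end Chd8 peaks had 27.2%, 29.8% and 59.4%. Peaks in replicate 1 only touched input 3 in 58.7% (55.3 to 62.0) of cases and peaks in replicate 2 only in 75.6% (73.6 to 77.6). The other groups had 81.7% (79.0 to 84.1) for both libraries and 49.7% (48.3 to 51.1) for neither. No input peak was touched by 539 one-library peaks, 31.3% (28.2 to 34.5) of those in replicate 1 and 15.2% (13.6 to 16.9) of those in replicate 2. Median Chd8 fold was 4.85 (4.76 to 4.92) for these 539 and 5.04 (4.97 to 5.17) for the 456 that touched all 3 inputs, and median width was 501 bp and 744 bp. Peak widths were not matched between the groups, and the part of input signal in these calls was not tested.

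**Figure D3:**
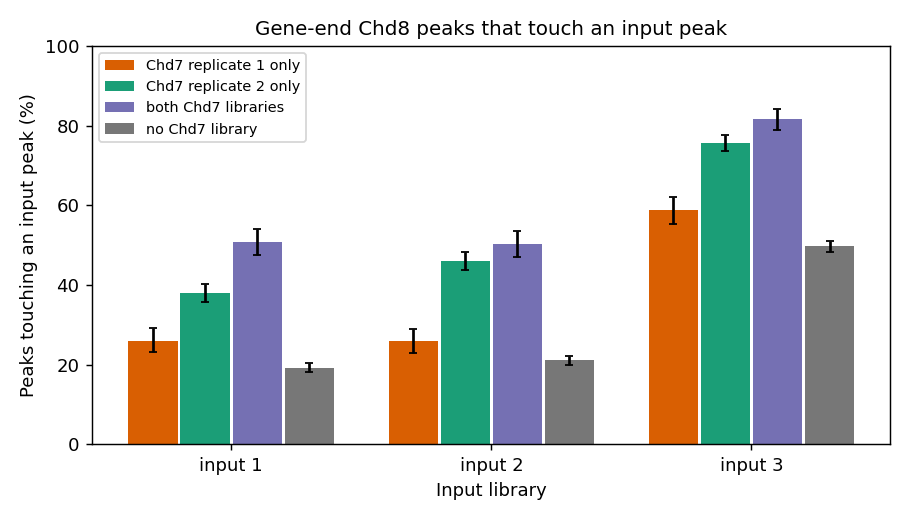
Share of gene-end Chd8 peaks (%) that touch a peak of inputs 1, 2 and 3, for peaks in Chd7 replicate 1 only, replicate 2 only, both Chd7 libraries and neither; bars are shares and lines are 95% exact intervals. Input 3 reaches 75.6% for replicate 2 only and 58.7% for replicate 1 only.

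The split of the one-library peaks between the Chd7 libraries changed with the inputs. Replicate 1 held 32.1% (30.3 to 33.9) of them. Every peak that touched its own input was then dropped from the Chd8 and Chd7 lists, and the groups were assigned anew. A peak in both libraries could so become a one-library peak. This gave 676 one-library peaks, and replicate 1 held 51.5% (47.6 to 55.3), an interval that holds equal shares. With inputs 2 and 3 exchanged, as the track names have it, there were 1121 and replicate 1 held 67.9% (65.1 to 70.6). The order of the libraries turned in the exchanged setting. There Chd7 replicate 2 was filtered by input 3 and Chd8 by input 2, while Chd7 replicate 1 kept input 1. The lists of inputs 1, 2 and 3 held 109486, 178478 and 91628 peaks. The turn therefore came with a change of filter, and it does not show which Chd7 library holds more sites. Its cause was not tested.

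Most one-library peaks lay where a gene starts. Strand was taken from a RefSeq promoter table that holds 17491 of the 21883 protein-coding genes. For 2106 of the 2648 peaks it gave the strand of every gene end at the peak, and 2057 of these (97.7%, 96.9 to 98.3) touched a starting boundary. The share was 98.3% (97.1 to 99.1) for peaks in both libraries and 96.4% (95.8 to 97.0) for peaks in neither. The peaks at finishing boundaries alone came mostly from replicate 1, where 94.5% (92.5 to 96.1) touched a start, against 99.2% (98.5 to 99.6) in replicate 2. The finishing-boundary peaks with the highest Chd8 fold were at Slc11a1 (6.66, replicate 2), Thbs4, a secreted matrix protein (6.36, replicate 1), and Spg7, a mitochondrial protease (6.21, replicate 1), named here after their values were seen. An annotated start site lay inside 63.4% (61.6 to 65.3) of one-library peaks, beside 72.9% of those in both libraries and 43.4% of those in neither. These shares were not taken at equal width, and median widths were 600, 782 and 374 bp in that order.

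Peaks of the 2 Chd7 libraries sat differently around the start site. Among peaks with a midpoint within 1000 bp of an annotated start, the median midpoint was 45.5 bp upstream (interval −63 to −32) for replicate 1 only and 32 bp downstream (19.5 to 45.5) for replicate 2 only. It was −37 bp (−51.5 to −20.5) for both libraries and 34 bp (24.5 to 44) for neither. The measure is the midpoint of the Chd8 peak, so it concerns which Chd8 peaks each Chd7 library met. Among peaks that touched no input 3 peak the medians were −74.2 bp (−117 to −44.5) for replicate 1 and 31.8 bp (3 to 59) for replicate 2, and among those that did −32 bp (−47 to −14.5) and 32.5 bp (18.5 to 47.5). The intervals did not overlap within either kind.

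**Figure D4:**
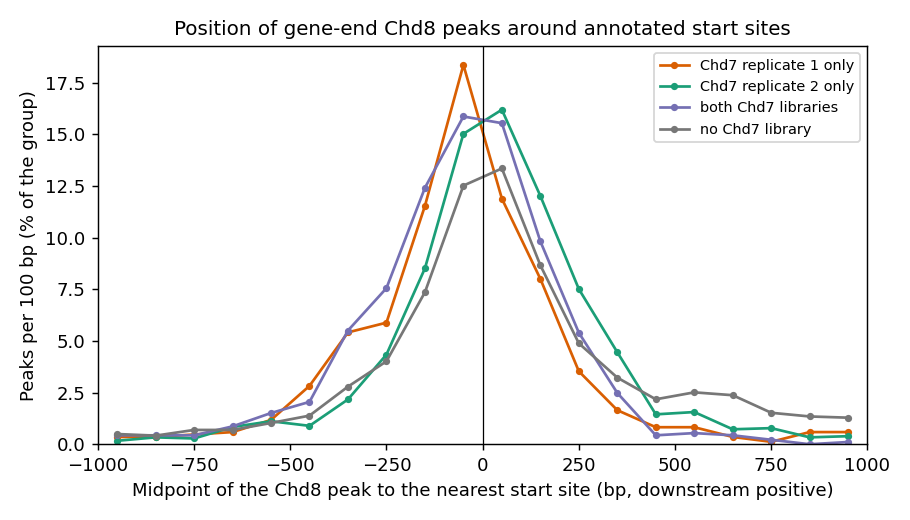
Midpoints of gene-end Chd8 peaks around the nearest annotated start site of a protein-coding gene (bp, downstream positive), in 100 bp bins, as a percentage of all peaks in each group. The replicate 1 only line has its highest bin, 18.4%, just upstream of the start, and the replicate 2 only line has its highest, 16.2%, just downstream.

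Paired gene ends were common. The one-library peaks touched 1 protein-coding gene in 2114 cases, 2 in 519 and 3 in 15, so 20.2% (18.7 to 21.7) met 2 or more. This was 23.8% (21.1 to 26.7) for peaks in both libraries and 14.7% (13.8 to 15.8) for peaks in neither, with peak widths not matched between the groups. Where 2 genes of known strand shared a peak, both started there in 294 of 374 cases (78.6%, 74.1 to 82.7). A start met a finish in 78, and 2 finishes met in 2. Head-to-head pairs among the strongest were Mcm7 with Ap4m1 and Vti1a with Zdhhc6. A lncRNA gene end was touched by 13.7%, beside 15.2% for both libraries and 12.2% for neither.

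Promoters inside these peaks were rich in CpG. Over 2092 promoter entries (250 bases before to 50 after the start) whose start site lay in a one-library peak, median GC content was 61.7% (61.3 to 62.0), beside 63.0% for both libraries, 59.0% for neither and 56.3% over all 21262 protein-coding entries. The median CpG count per 300 bases was 23, beside 24, 20 and 13. Replicate 1 promoters had 60.0% GC (59.3 to 60.7) and replicate 2 promoters 62.3% (62.0 to 62.7). Some genes have several entries, so entries are not independent.

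The 12 motifs searched on both strands were TATAAA (the TATA box), GGGCGG (GC box), CCAATNAG (CCAAT box, bound by NF-Y), CCGGAAGT (ETS factors), GCATGCGC (NRF1), AAGATGGC (YY1), TGACGTCA (CRE), CACGTG and CAGCTG (E-boxes), ACTACAA (part of the Zfp143 site), AGGNGGC (part of the CTCF site) and ACAATGG (Sox factors). Matches of different motifs were counted separately and may share bases. Of one-library promoters, 67.7% (65.6 to 69.7) held a GC box, against 46.2% of all promoters. ETS letters stood in 11.9% (10.5 to 13.3) against 5.15%, NRF1 in 7.41% (6.32 to 8.62) against 3.51%, YY1 in 7.03% (5.97 to 8.21) against 3.05% and CRE in 4.21% (3.39 to 5.16) against 2.23%. The TATA box was less frequent, 5.07% (4.17 to 6.10) against 12.6%. CACGTG stood in 10.9% against 7.84%, CAGCTG in 13.1% against 15.6%, the CTCF letters in 39.2% against 33.6% and the Sox letters in 2.01% against 2.92%. Peaks in neither Chd7 library had similar shares for most motifs (ETS 14.2%, NRF1 7.33%, YY1 7.56%), so none of these is called particular to the one-library peaks.

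Promoters differed between the Chd7 libraries in a few motifs. The CCAAT letters stood in 17.6% (14.7 to 20.9) of 629 replicate 1 promoters and 11.6% (9.96 to 13.3) of 1463 replicate 2 promoters. Promoters in both libraries had 16.1% (13.7 to 18.8), in neither 11.3% (10.1 to 12.6), and all promoters 8.21%. The Zfp143 letters stood in 8.11% (6.10 to 10.5) and 4.17% (3.20 to 5.32), with 6.31% in both, 6.29% in neither and 3.60% of all promoters. Where the peak touched no input 3 peak, CCAAT shares were 17.5% (12.6 to 23.2) and 10.3% (7.04 to 14.3), and Zfp143 shares were 5.19% (2.62 to 9.09) and 6.16% (3.69 to 9.57), so that the order for Zfp143 turned. These 2 motifs were picked out of 12 after their shares were seen, and a match is a run of letters and not a bound site.

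The X chromosome held few one-library peaks. Of 176 gene-end Chd8 peaks on X, 22 (12.5%) were one-library peaks, while the autosomes had 27.4% (chromosome 12) to 35.0% (chromosome 10). Replicate 1 held 2 of the 22, at Cdk16 and at the shared end of Gpr173 and Tspyl2, and replicate 2 held 20, among them Usp9x and Huwe1, both of the ubiquitin system. None of the 927 peaks in both libraries lay on X (0%, up to 0.397%), beside 154 of 5059 in neither. Over whole lists X had 0.625% (0.430 to 0.876) of Chd7 replicate 1 peaks, 1.57% (1.28 to 1.91) of replicate 2 peaks, 1.73% of Chd8 peaks and 2.60% to 6.53% of input peaks. These genes were named after the peaks were counted, and the sex of the animals was not used here.

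At the level of genes, 3129 of 21883 protein-coding genes (14.3%) had a one-library peak at an end. Of the 8963 genes with any gene-end Chd8 peak, 34.9% did. Replicate 1 gave 1022 of the 3129 genes and replicate 2 gave 2125, and 18 genes had peaks of each kind. A peak in both libraries also lay at an end of 49 of the 3129, while 1150 of the 8963 genes with Chd8 had one. Each Chd8 peak falls in 1 group, so a gene enters the counts of 18 and 49 only with 2 or more Chd8 peaks. Gene lists are given below as counts against these shares, without a test. The 34.9% is the nearer base, since only genes with Chd8 can have such a peak. List counts fell when peaks over the matching input were removed: from 9 to 3 for OPC identity, 29 to 2 for cytosolic ribosomal proteins, 22 to 1 for mitochondrial ribosomal proteins, 21 to 4 for oxidative phosphorylation and 18 to 9 for autism risk genes. The number of one-library peaks itself fell from 2648 to 676.

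OPC identity genes had one-library peaks at 9 of 30 members (30.0%, 14.7 to 49.4), which is 9 of 25 with Chd8 (36.0%). C1ql1, a secreted synaptic protein of OPCs, had the highest Chd8 fold, 6.36, with a Chd7 replicate 1 fold of 4.57, and a second peak of 5.43 found in the same library, neither with an input peak. Olig2, the lineage-defining bHLH factor, had a Chd8 fold of 5.34 over 1082 bp at its start and a Chd7 replicate 2 fold of 3.08, with an input 3 peak. Its paralog Olig1 had 4.57 and 3.38, also from replicate 2. Sox5, which restrains differentiation, had 4.85, the Notch ligand gene Dll1 4.75, the matrix gene Matn4 4.66 at its finish, the Hes family gene Hes6 4.47 and Lhfpl3 4.36, all from replicate 2.

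Oligodendrocyte differentiation and myelin genes had 3 of 34 (8.82%, 1.86 to 23.7), or 3 of 13 with Chd8. Apc, the Wnt pathway inhibitor, had a Chd8 fold of 6.19 and Zfp24, a zinc finger factor of myelination, 5.20, found in replicates 2 and 1. Mbp, myelin basic protein, had 3.81 over 242 bp, a value at the lower end of the range that other one-library peaks shared, and a 13 bp overlap with its Chd7 replicate 2 peak. All 3 touched peaks of inputs 1 and 3.

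With the lists as deposited, the p53 pathway and apoptosis list had 15 of 33 genes (45.5%, 28.1 to 63.6), the largest share of the 19 lists, and 15 of the 22 with Chd8 (68.2%, 45.1 to 86.1), and 1 of its genes had a peak in both libraries. Atr and Atm, the DNA damage kinases, had Chd8 folds of 6.74 and 6.03 at ends shared with 1700065D16Rik and Npat. Trp53, which encodes p53, had 5.46 over 1726 bp at its shared start with Wrap53, with a Chd7 replicate 1 fold of 4.59, and a second peak of 4.25 there was also found in replicate 1. The others, named after the count was seen, were Sesn2 (5.00), Sesn1 (4.96), Cycs (4.95), Apaf1 (4.76), Bax (4.73), Gadd45b (4.63), Trp53inp1 (4.62), Gadd45a (4.46), Ccng1 (4.40), Mdm2 (4.30), Zmat3 (4.18) and Chek2 (3.93). Of the 15 genes, 5 came from replicate 1 and 10 from replicate 2. With matching-input peaks removed the count was 1, and with inputs 2 and 3 exchanged it was 3. The list did not lead at stricter Chd8 thresholds: it had 2 genes at a −log10 q of 5 or more, where cytosolic ribosomal proteins had 20 of 78, and 4 at a fold of 5 or more, where they had 25. A reciprocal overlap of 50% gave 9. All Chd8 peaks over Chd7 replicate 1, whether or not replicate 2 had a peak there, gave 6, and all those over replicate 2 gave 11. Chek2 was the one gene of the 15 whose strongest peak touched no peak of input 3. The list was looked at among 19, and its share is a description.

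Notch, Wnt and Hedgehog pathway genes had 12 of 44 (27.3%), or 48.0% of 25 with Chd8, of which 11 came from replicate 2 and 1 from replicate 1. Apc led, followed by Sufu, a Hedgehog inhibitor (5.75), and Gli2, a Hedgehog effector (5.22). Chromatin regulators had 17 of 64 (26.6%, 16.3 to 39.1), or 35.4% (22.2 to 50.5) of 48 with Chd8. They were led by Rbbp5, by Kdm1a, a histone demethylase (8.87), and by Chd8 itself. The start of Chd8 carried a Chd8 peak of fold 6.92 over a Chd7 replicate 2 peak of fold 3.88 and peaks of all 3 inputs. Autism risk genes had 18 of 60 (30.0%, 18.8 to 43.2), or 38.3% (24.5 to 53.6) of 47 with Chd8, led by Adnp, Phf12 (9.73) and Chd8.

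Housekeeping and cell cycle lists lay close to the share of all genes with Chd8. Cytosolic ribosomal protein genes had 29 of 78 (37.2%, 26.5 to 48.9), led by Rps12 (9.39), Rpl35a (9.11) and Rpl36 (8.95). Mitochondrial ribosomal protein genes had 22 of 78 (28.2%), led by Mrpl44 (9.53), Mrpl20 (9.39) and Mrpl47 (8.60), which shares its start with Ndufb5. Nuclear oxidative phosphorylation genes had 21 of 67 (31.3%), with Ndufb5, Atp5g2 (7.78) and Ndufa9 (7.39). Splicing genes had 14 of 48 (29.2%), with Snrnp70, Sf3a3 (9.45) and Snrpc (8.21), and proteasome genes 11 of 31 (35.5%), with Psmd1, Psmb1 (9.05) and Psmd7 (7.09). Mediator genes had 10 of 31 (32.3%), with Med23 (7.56), Ccnc (6.96) and Med18 (6.15), and translation initiation factors 12 of 38 (31.6%), with Eif1ad (9.82), Eif4a2 (7.15) and Eif4a1 (6.24). Cell cycle genes had 11 of 42 (26.2%), with Mcm7, Rbl1 (8.85) and Aurka (7.20). Against the genes with Chd8, these 8 lists had between 29.8% and 39.2%.

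Cholesterol synthesis had 5 of 27 (18.5%, 6.30 to 38.1), or 26.3% of 19 with Chd8, with Mvd (6.89), Mvk (5.88) and Insig1 (4.69). Of markers of other cell types, astrocyte genes had 5 of 20, or 41.7% (15.2 to 72.3) of 12 with Chd8, with Glul (5.88), Fabp7 (4.99) and Ndrg2 (4.86), and neuron genes had 2 of 30, or 2 of 8 with Chd8 (3.19% to 65.1%), Snap25 (5.26) and Grin1 (4.75). Microglia genes had 0 of 24 (up to 14.2%), or 0 of 4 with Chd8 (up to 60.2%). Endothelial and mural genes had 0 of 27 (up to 12.8%), and no gene of that list had a Chd8 peak that could have been counted. Several of the astrocyte genes, such as Glul and Fabp7, are also expressed in the oligodendrocyte lineage or its progenitors.

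**Figure D5:**
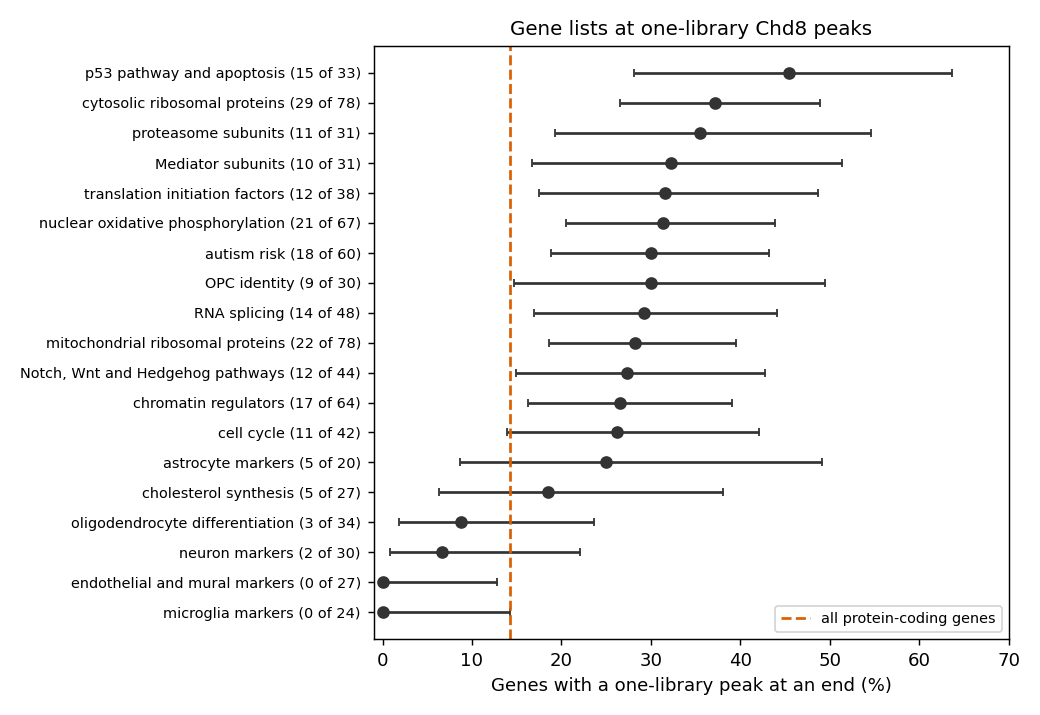
Share of the genes in each of 19 lists with a one-library Chd8 peak at an end (%), with 95% exact intervals and the count in brackets. The dashed line is the 14.3% of all protein-coding genes. The nearer base, 34.9% of genes with any gene-end Chd8 peak, is not drawn and applies to shares of list genes with Chd8. The p53 pathway and apoptosis list lies highest at 45.5% with the lists as deposited, and the microglia and the endothelial and mural lists lie at 0%.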

How the data were processed

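The deposited files are 1 broad peak list per library, in mm10. Bowtie2, SAMtools, Picard and MACS are listed in the submitters' processing notes; their versions and settings, and which library served as calling control, are not stated in the sources used. Per peak, the authors' caller gave a score (10 times the −log10 q to within 1 unit), a fold over local background, which is a ratio, and the −log10 p and −log10 q. Fold depends on the control and depth of a library and was not compared between libraries.

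Overlaps were computed in Python 3.11.15 with pandas 2.3.3 and checked on simulated intervals and against bedtools 2.31.1. Gene boundaries came from a RefSeq table and strands, start sites and promoters from a RefSeq promoter table (GRCm38.p6, the same build), which matched 2560 of 3129 genes. Midpoints, GC content and motifs were computed from these tables. All 806 list entries matched, 1 by a synonym.

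Members and lists were chosen with earlier results of these data known. Named were the 10 peaks of highest Chd8 fold per Chd7 library, the 3 of highest Chd7 fold, the 3 shortest overlaps and the nearest misses, the 3 genes of highest Chd8 fold in each list and the members of the OPC and differentiation lists, with some items not reported here. The limit of 100 bases for printed promoter stretches was set after the data were seen, and sequences on chromosome 18 were not used. Alternatives changed the peak thresholds, overlap, inputs, window and libraries. No test over samples was run, since Chd8 has 1 library.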

Additional observations from a re-analysis of the deposited data

How the results depend on the processing

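Of 12 alternatives, the number of one-library peaks stayed within 1.5 times of 2648 in 7, and the median Chd8 fold and width stayed inside their intervals in 3 and 6. Restricting Chd8 to −log10 q values of 5 or more gave 603 peaks, a median fold of 6.54, a median width of 707 bp, 72.5% with an input 3 peak and 38.0% from replicate 1, and a fold of at least 5 gave 1299, 5.74, 682 bp, 73.4% and 35.8%. A reciprocal overlap of 50% gave 1516 peaks, 5.18, 74.2% and 21.4% from replicate 1. Counting a Chd7 peak within 500 bp gave 4.90, 567 bp and 68.1%, and a window of 5 kb gave 4.93, 67.3% and 34.6% from replicate 1. Equal numbers of highest-fold Chd7 peaks gave 38.6% from replicate 1. With matching-input peaks removed the share touching input 3 has no value by construction, and there were 676 peaks, 4.87, 539.5 bp and 51.5% from replicate 1, and with inputs 2 and 3 exchanged 1121 peaks, 5.10, 47.5% with an input 3 peak and 67.9%. Leaving out a Chd7 library makes the peaks those over the remaining one, 1777 to 2725, with a median fold of 5.11 to 5.31, a width of 654 to 704 bp and an input 3 share of 70.7% to 77.7%. A cut on Chd8 fold raises the median fold by construction. The peaks over 1 remaining Chd7 library include those in both libraries, whose medians were 5.47 for fold and 782 bp for width. The cause of the other shifts was not tested. Counts of the 19 gene lists stayed within 1.5 times in 147 of 228 comparisons. Keeping mock-touching peaks and leaving out X and Y moved none of these values beyond their intervals. With 1 promoter per peak, chosen after the data were seen, CCAAT shares were 18.3% and 11.5% and Zfp143 shares 7.50% and 4.66% for replicates 1 and 2. No paired analysis was possible because no result comes from a test over samples and Chd8 has 1 library, whose number no Chd7 library shares.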
